A study of Caenorhabditis elegans with 6 samples.

Results

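Basic helix-loop-helix (bHLH) genes encode transcription factors that pair through a helix-loop-helix domain and bind short E-box sequences through an adjoining basic region. The genes described here are those whose symbol in the deposited table is a single gene named hlh- with a number, together with lin-32, cnd-1, ngn-1, aha-1, ahr-1, hif-1, mxl-1, mxl-2, mxl-3, mdl-1, mml-1, ref-1 and sbp-1. The rule gave 32 genes with 39 probe sets, of 17337 genes and 22548 probe sets in all. Each gene was represented by its brightest probe set, by the mean of all 6 arrays.

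In animals, tissue-specific bHLH proteins usually work as a pair with a broadly present E protein, which in C. elegans is HLH-2. Proneural members such as LIN-32 and NGN-1 give cells a neural fate, HLH-1 is the worm's MyoD, and the REF-1 family answers to Notch signals. Members with an additional leucine zipper form the Myc, Max and Mad network or govern lipid and lysosomal genes. Members with a PAS domain include the hypoxia-inducible factor HIF-1, its partner AHA-1 and the dioxin receptor homologue AHR-1.

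RNA came from whole mixed-stage Caenorhabditis elegans embryos on 6 Affymetrix arrays, 1 per sample. The mutant, with 3 samples, carries mir-35-41(nDf50), a deletion of a microRNA cluster that is abundant in early embryos, and the other 3 samples are wild type. Its strain is given as VT2935 lacking nEx1187, and wild type is N2. All cultures grew on plates with chicken egg yolk and spent the last 24 hours before harvest at 25 °C instead of 20 °C, so both groups share the warmer growth. No label says whether the samples of a group came from separate cultures, so p-values cover just the scatter among these samples, and that may be technical.

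The embryos' own markers were present. All 16 maternally loaded transcripts of the marker list, such as pos-1 and mex-5, and 11 of 13 early zygotic ones had means above 5.55, the highest value of any of 5 yeast control probe sets on the array, for which worms have no transcript (all values are log2 of the normalized intensity unless stated otherwise). Of 8 yolk and adult markers, 3 had means at or below that value. The libraries were not alike within a group. With each gene set against its own 6-array mean, the early zygotic list had a median of 0.19, -0.32 and -0.35 on mutant replicates 1, 2 and 3, against 0.30, 0.05 and 0.09 on wild type replicates 1, 2 and 3. The maternal list had medians of 0.18, -0.26 and -0.23 on the mutant arrays, against 0.22, 0.16 and -0.13 on the wild type arrays. Mutant replicate 1 thus lay within the wild type range on both lists and mutant replicates 2 and 3 below it.

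The deposited annotation gave all 32 genes a term with the words regulation of transcription, against 4.49% of all genes. On chromosome X lay 7 of them (21.9%, against 14% of all genes with a chromosome), and 7 on chromosome III (21.9%, against 13.3%). There were 6 on II (18.8%, against 17.7%). Chromosomes I, IV and V held 4 each (12.5%, against 14.6%, 15.6% and 24.8%). For 28 genes the intensity was above 5.55 on all 6 arrays. The other 4, hlh-12, hlh-19, hlh-26 and hlh-34, had means at or below that value, so neither group shows clear signal for them and no fold is given. Of the 32 probe sets 24 were of the kind unique to a transcript, and 8 carried the suffixes Affymetrix gives to sets that can detect several transcripts, those of aha-1, hif-1, hlh-2, hlh-11, hlh-31, mdl-1, mxl-2 and sbp-1.

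The comparison of mutant with wild type asked which of these factors differ in transcript level without the microRNA cluster. In the mutant, the proneural genes ngn-1 and lin-32 fell to about the same extent, 1.94-fold and 1.90-fold, and hlh-11, which encodes the worm's AP-4 homologue, rose 3.90-fold. These 3 of 32 genes (9.38%) passed an adjusted p of 0.05 in limma, with Benjamini-Hochberg adjustment over all genes, where 3.67% of all genes passed. The 1 gene that rose stands beside 3.03% of all genes, and the 2 that fell beside 0.646%. The median difference of the 32 was -0.09, against -0.05 over all genes, and 21 of them (65.6%) were below 0, against 60.7%. Without mutant replicate 1 the count was 4 of 32, with hlh-16 added, where 11.4% of all genes passed, so that count is near the share of all genes. It was 0 without mutant replicate 2, mutant replicate 3 or wild type replicate 3 (limma), where 127, 84 and 231 of all genes passed (0.733%, 0.485% and 1.33%). In these fits 7, 6 and 9 of the 32 had an unadjusted limma p under 0.05. The share of all genes at that unadjusted threshold was not counted there, so these counts have no baseline. Without wild type replicate 1 the count past the adjusted threshold was 2 (2.45% of all genes), hlh-11 and sbp-1, so that both falls were lost and sbp-1 was added. Without wild type replicate 2 it was 1, ngn-1 (0.75% of all genes).

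**Figure D1:**
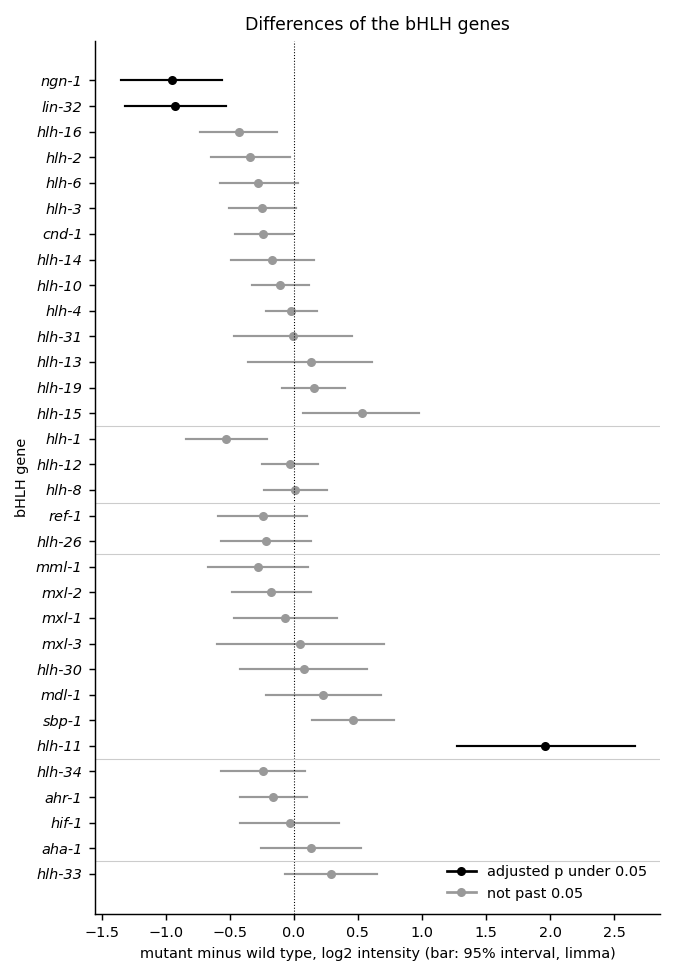
Differences of the 32 bHLH genes, mutant minus wild type on the log2 scale (horizontal axis), 1 row per gene, ordered by role (neural, mesoderm and gonad, REF-1 family, zipper proteins, PAS proteins, no class, separated by grey lines) and by difference. Points are limma estimates from 3 against 3 arrays, bars are 95% intervals not adjusted for the number of genes, and black marks an adjusted p under 0.05, which ngn-1 (-0.95), lin-32 (-0.93) and hlh-11 (1.96) reached.

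The groups of arrays did not overlap for 9 of the 32 genes (28.1%), where 24.4% of all genes had this property. The mutant arrays were the lower ones for ngn-1, lin-32, hlh-1, hlh-16, hlh-2 and cnd-1 (13.4% of all genes) and the higher ones for hlh-11, hlh-15 and sbp-1 (11% of all genes). The same 9 genes had an unadjusted p under 0.05 (28.1%, against 19.7% of all genes).

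**Figure D2:**
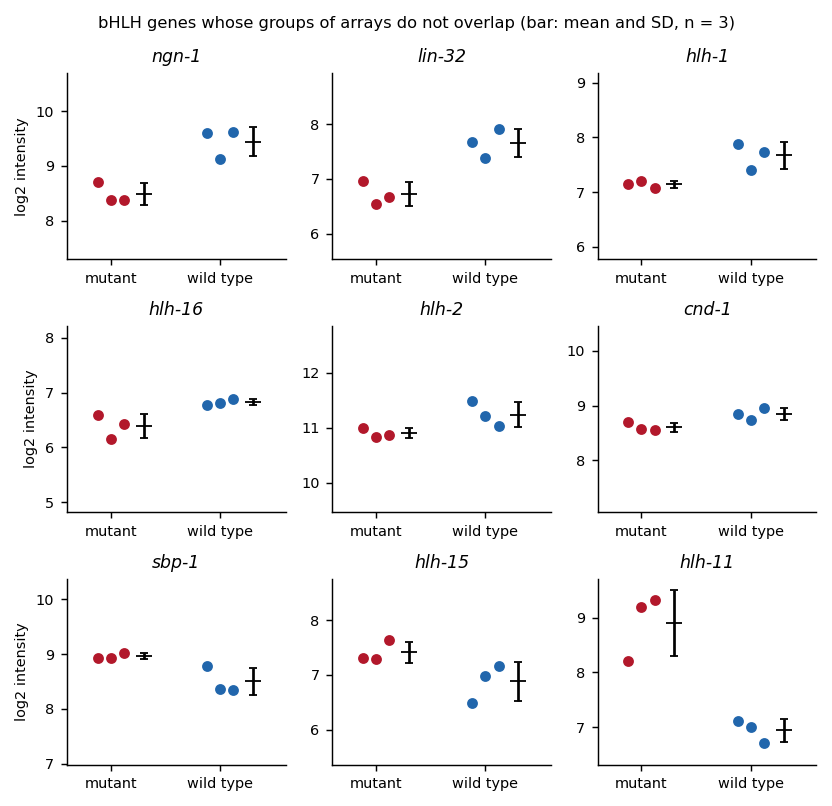
Log2 intensity (vertical axis, 3.4 units in every panel) on the 3 mutant arrays (red, left) and 3 wild type arrays (blue, right) for the 9 bHLH genes whose groups do not overlap; black bars are mean and SD. In hlh-11 mutant replicate 1, at 8.21, sits apart from mutant replicates 2 and 3, at 9.19 and 9.32.

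The 14 genes of the first group, called neural here, are mostly of the proneural classes, but also include hlh-2, the general partner, hlh-6, which serves the pharyngeal glands, and the hlh-31 set, which may report a glial gene. In this group ngn-1, the worm's neurogenin, had 8.71, 8.37 and 8.38 on mutant replicates 1, 2 and 3, against 9.59, 9.13 and 9.61 on wild type replicates 1, 2 and 3. Every mutant array lay clearly below the lowest wild type array. The difference was -0.95 (SE 0.17, n = 3 against 3, 95% interval -1.35 to -0.56, limma adjusted p = 0.0321). The transcripts of lin-32, the worm's atonal homologue, which is needed for touch receptor and other sensory neurons, followed the same order of arrays in the mutant. They had 6.97, 6.55 and 6.67 on the mutant arrays, against 7.68, 7.39 and 7.91 on the wild type arrays. This was a difference of -0.93 (SE 0.17, n = 3 against 3, 95% interval -1.32 to -0.53, limma adjusted p = 0.0349). In both genes mutant replicate 1 was the highest of the mutant arrays and wild type replicate 2 the lowest of the wild type arrays.

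Neither call outlasted the loss of most single arrays, although the size of each difference did. For ngn-1 the difference stayed between -1.11 and -0.87 in the 6 fits without 1 array. Its adjusted p was 0.138, 0.149, 0.0732 and 0.109 without mutant replicates 2 and 3 and wild type replicates 1 and 3. For lin-32 the difference stayed between -1.06 and -0.80, and only without mutant replicate 1 did it pass, at an adjusted p of 0.0140, while the other 5 fits gave 0.0600 to 0.160. Within the mutant, both genes and the medians of the maternal and early zygotic lists were highest on replicate 1. On that array both genes lay below every wild type array and both list medians lay within the wild type range. In RNA from whole embryos, fewer cells of a type and less RNA per cell cannot be told apart. The part of embryo stage in these falls was not tested.

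The common partner of these proteins, hlh-2, had 11, 10.84 and 10.86 on the mutant arrays, against 11.48, 11.21 and 11.03 on the wild type arrays. The groups lay next to each other without overlap, mutant replicate 1 just under wild type replicate 3. The difference of -0.34 did not pass (SE 0.13, 95% interval -0.65 to -0.03, limma adjusted p = 0.212), and the second probe set of hlh-2 gave -0.22. The Olig-like gene hlh-16, which acts in the lineage of the AIY interneuron, had 6.60, 6.16 and 6.43 on the mutant arrays, against 6.78, 6.82 and 6.88 on the wild type arrays. Its wild type arrays were close together and its mutant arrays spread below them, with a difference of -0.43 (SE 0.13, limma adjusted p = 0.123). Without mutant replicate 1 this gene passed, at -0.53 and an adjusted p of 0.0343. The NeuroD homologue cnd-1, which acts in motor neuron precursors, had 8.70, 8.57 and 8.55 on the mutant arrays, against 8.84, 8.74 and 8.96 on the wild type arrays. Its difference was small, at -0.24 (SE 0.10, limma adjusted p = 0.234).

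Among the remaining neural genes, hlh-15, a homologue of the NHLH factors, went the other way. It had 7.31, 7.29 and 7.63 on the mutant arrays, against 6.49, 6.98 and 7.17 on the wild type arrays. The wild type arrays spread widely (SD 0.35), and the difference of 0.53 did not pass (SE 0.19, 95% interval 0.07 to 0.98, limma adjusted p = 0.198). The achaete-scute class genes differed by -0.25 for hlh-3, which acts in motor neurons of the egg-laying circuit, by -0.17 for hlh-14, which acts in the lineage of the PVQ, HSN and PHB neurons, by -0.28 for hlh-6, a regulator of pharyngeal gland genes, and by -0.02 for hlh-4, which acts in the ADL sensory neuron. Their arrays overlapped between the groups, and their adjusted p-values were 0.293, 0.559, 0.300 and 0.939. For hlh-4 the 95% interval was narrow, -0.22 to 0.18, which bounds a change at 1.13-fold higher and 1.16-fold lower. The genes hlh-10 and hlh-13 differed by -0.11 and 0.13, with overlapping arrays. The dim gene hlh-19 had a mean of 4.06 in the mutant and 3.90 in wild type.

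The probe set named hlh-31 needs care. Its public identifier in the deposited table is F38C2.2, which the gene table of assembly WBcel235 gives to hlh-17, a gene of glia, while hlh-31 is F38C2.8. Its probes are of a shared kind, so it may report on either gene, on both or on further transcripts. It had 6.89, 7.02 and 6.88 on the mutant arrays, against 6.53, 6.96 and 7.33 on the wild type arrays. The mutant arrays lay inside the wild type range, at a difference of -0.01 (95% interval -0.47 to 0.45).

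Across the 14 genes of the neural group the median difference was -0.20, against -0.05 over all genes, and 11 differences (78.6%) were below 0, against 60.7%. In this group 2 genes fell (14.3%, against 0.646% of all genes) and none rose. Relative to the mean of the 6 arrays, their median was -0.04, -0.09 and -0.16 on the mutant arrays, against 0.04, 0.05 and 0.19 on the wild type arrays. A list of 18 neuron fate genes that act after or beside proneural factors had a median of -0.21 with 16 differences (88.9%) below 0, against 60.7% of all genes. Relative to the mean of the 6 arrays its median was -0.25, 0.02 and -0.09 on the mutant arrays, against 0.10, 0.11 and 0.12 on the wild type arrays. Such shares below 0 were not particular to neural genes. They were 87.5% in the maternal list, 84.6% in the early zygotic list and 90% in a germline list, but 37.5% in a late embryo list. None of the 18 passed in limma, and 6 (33.3%) had an unadjusted p under 0.05, against 19.7% of all genes. For 7 (38.9%, against 13.4% of all genes) the mutant arrays lay below all wild type arrays, and 1 of these, unc-55, was above the yeast controls on 0 arrays. Its largest differences were those of ceh-36, at -0.79 (SE 0.18, limma adjusted p = 0.0697), and unc-3, at -0.62 (SE 0.13, limma adjusted p = 0.0539), factors of sensory and of motor neurons. Of 12 genes used by nearly all neurons 2 rose (16.7%, against 3.03% of all genes), none fell and the median was 0.17. Differences were below 0 for 4 of the 12 (33.3%, against 60.7% of all genes). The 2 that rose were those of the peptide processing enzymes, egl-3 by 1.52 and egl-21 by 1.42 (limma adjusted p = 0.0278 and 0.0182). The probe sets of ceh-36, unc-3 and egl-21 are of a shared kind.

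**Figure D3:**
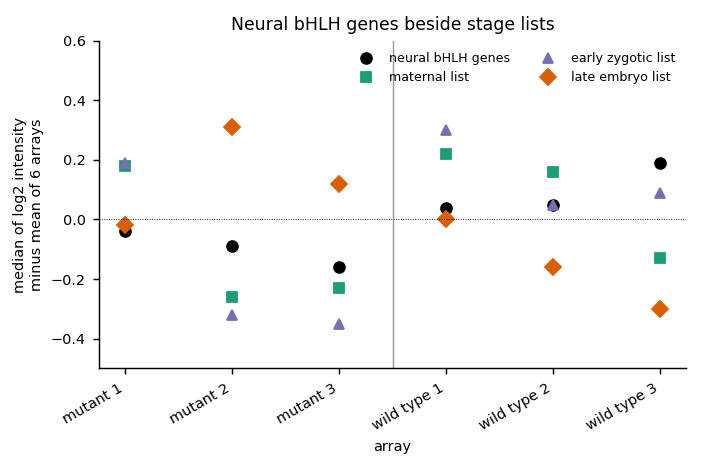
Median over the genes of a list of log2 intensity minus the gene's mean over the 6 arrays (vertical axis), on each mutant array (left of the line) and wild type array (right). The median of the 14 bHLH genes of the neural group was -0.04, -0.09 and -0.16 on the mutant arrays, against 0.04, 0.05 and 0.19 on the wild type arrays, and the median over all genes had the same signs at -0.01, -0.01 and -0.03, against 0.01, 0.01 and 0.02. Mutant replicate 1 had maternal and early zygotic medians of 0.18 and 0.19.

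The late embryo list, cuticle and pharyngeal muscle genes, had medians of -0.02, 0.31 and 0.12 on the mutant arrays, against 0.00, -0.16 and -0.30 on the wild type arrays. Of its 16 measured genes 5 rose (31.2%, against 3.03% of all genes) and none fell. Differences were below 0 for 6 of the 16 (37.5%, against 60.7% of all genes). The groups of arrays did not overlap for 10 (62.5%, against 24.4% of all genes), with the mutant lower for 2 and higher for 8. Among the 5 that rose were the collagen genes dpy-9 (2.03) and dpy-5 (1.90), and with smaller rises rol-6 (1.16) and dpy-8 (0.89). The sets of dpy-5 and dpy-8 are of a shared kind. The remaining riser, sqt-1 (0.74), was above the highest yeast control value on only 1 array. Of the 16 genes, 2 had means within the yeast controls. In the maternal and early zygotic lists none of 16 and none of 13 genes passed in limma. In each, 4 genes had an unadjusted p under 0.05 (25% and 30.8%, against 19.7% of all genes). Medians were -0.26 and -0.31. The largest differences were -0.91 for the eggshell gene cpg-2 and -0.55 for puf-3, with sdz-38 at -0.82 and pes-10 at -0.74 leading the early zygotic list. The sets of cpg-2, puf-3 and pes-10 are of a shared kind.

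Muscle and other mesoderm genes were led by hlh-1, which drives body wall muscle fate. It had 7.14, 7.21 and 7.07 on the mutant arrays, against 7.87, 7.40 and 7.74 on the wild type arrays. The mutant arrays were tightly grouped and all lay below the wild type arrays. The difference of -0.53, 1.44-fold lower, did not pass (SE 0.13, 95% interval -0.84 to -0.21, limma adjusted p = 0.0859). Of 13 measured muscle genes expressed after hlh-1, none passed in limma, 1 had an unadjusted p under 0.05 and the median was -0.02. The largest differences were -0.48 for the troponin gene tnt-3 (SE 0.15), whose probe set is of a shared kind, and 0.37 for deb-1, the worm's vinculin (SE 0.17). The twist homologue hlh-8, of the postembryonic mesoderm, had overlapping arrays and a difference of 0.01 (95% interval -0.23 to 0.26). None of its 4 listed targets passed in limma or had an unadjusted p under 0.05. Their median was -0.05, and the largest differences were -0.29 for ceh-24 and -0.10 for mls-1. The dim gene hlh-12, of the migrating gonad, had a mean of 5.14 in the mutant and 5.17 in wild type.

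For the pharyngeal glands, which hlh-6 serves, 7 genes were listed and 1 rose (14.3%, against 3.03% of all genes). This was phat-6, at 1.03 (SE 0.19, limma adjusted p = 0.0357). The median was 0.16. The probe set of phat-6 is of a shared kind. Its wild type arrays, at 5.49, 5.46 and 5.64, lay at the level of the yeast controls, 1 of them just above 5.55, so the difference is at best a lower bound.

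The REF-1 family was measured singly for ref-1 and hlh-26. The founder gene ref-1, a repressor induced by Notch in early blastomeres, had 8.80, 8.55 and 8.40 on the mutant arrays, against 9.04, 8.78 and 8.66 on the wild type arrays. Only mutant replicate 1 reached into the wild type range, and the difference was -0.24 (SE 0.14, limma adjusted p = 0.419). The dim hlh-26 had a mean of 5.28 in the mutant and 5.49 in wild type. The remaining family members share probe sets. The one for hlh-25 and hlh-27 had 6.84, 6.34 and 6.75 on the mutant arrays, against 6.86, 7.17 and 7.19 on the wild type arrays, and the one for hlh-28 and hlh-29 was below the yeast controls on all 6 arrays, between 4.14 and 4.52. These sets name several genes, so the rule leaves them out and they were not tested. Of 10 Notch pathway genes none passed in limma and 1 had an unadjusted p under 0.05. Their median was -0.14, with the largest differences at -0.37 for the presenilin gene sel-12 and -0.32 for the ligand gene dsl-1. The probe set of dsl-1 is of a shared kind.

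The zipper proteins held the largest change. The transcripts of hlh-11 had 8.21, 9.19 and 9.32 on the mutant arrays, against 7.11, 7.01 and 6.71 on the wild type arrays. The groups were well apart, and mutant replicate 1 lay between the other mutant arrays and wild type. The difference was 1.96 (SE 0.29, n = 3 against 3, 95% interval 1.27 to 2.66, limma adjusted p = 0.0195). The other probe sets of hlh-11 gave 2.03 (adjusted p = 0.00928 over all probe sets, limma) and 1.91 (adjusted p = 0.0231). Those sets had the same order of arrays within each group, mutant replicate 1 lowest and wild type replicate 3 lowest. One of the 3 sets had wild type values of 5.34, 5.01 and 4.53, below the highest yeast control, so its difference may be understated. In the fits without 1 array the difference lay between 1.76 and 2.31. The adjusted p was 0.0921, 0.0856, 0.0839 and 0.0821 without mutant replicates 2 and 3 and wild type replicates 2 and 3, 0.0456 without wild type replicate 1 and 5.42e-04 without mutant replicate 1. Within each group the late embryo list was also lowest on mutant replicate 1 and on wild type replicate 3, and the part of embryo stage in this rise was not tested.

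**Figure D4:**
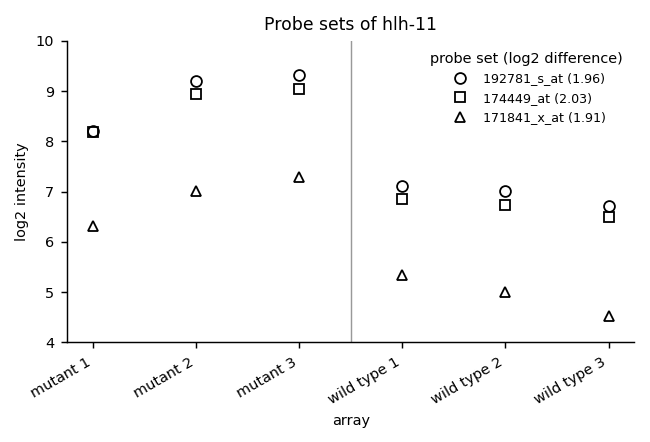
Log2 intensity (vertical axis) of the 3 probe sets of hlh-11 on the 3 mutant arrays (left of the line) and 3 wild type arrays (right), with the log2 difference of each set in the legend. All 3 sets are higher on every mutant array than on any wild type array, with differences of 1.91 to 2.03; levels of different probe sets are not comparable.

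Second among the zipper genes was sbp-1, the worm's SREBP, an activator of fatty acid synthesis genes. It had 8.93, 8.93 and 9.02 on the mutant arrays, against 8.79, 8.37 and 8.34 on the wild type arrays. The mutant arrays were nearly equal and all lay above the wild type arrays. The difference of 0.46 did not pass (SE 0.14, 95% interval 0.14 to 0.78, limma adjusted p = 0.123), but passed without wild type replicate 1, at 0.60 and an adjusted p of 0.0351. Of 8 measured genes of its lipid programme 2 rose (25%, against 3.03% of all genes) and none fell. The 2 were the desaturase genes fat-2, by 1.79, and fat-6, by 1.65 (limma adjusted p = 0.00853 and 0.00936). The probe set of fat-6 is of a shared kind. Differences were below 0 for 3 of the 8 (37.5%, against 60.7% of all genes), and 1 of the 8 had a mean within the yeast controls. The list median was 0.19.

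The Myc, Max and Mad genes did not pass. The Myc-like and Mondo-like gene mml-1 had 9.23, 9.36 and 9.41 on the mutant arrays, against 9.92, 9.64 and 9.28 on the wild type arrays. Wild type replicate 3 lay among the mutant arrays, and the difference was -0.28 (SE 0.16, limma adjusted p = 0.408). A second probe set gave -0.34. Its partner mxl-2, a Max-like gene, differed by -0.18 (SE 0.13). The Mad-like gene mdl-1 and its partner mxl-1 differed by 0.23 and -0.07 (SE 0.19 and 0.17), with overlapping arrays.

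Wild type replicate 3 stood apart for several of these genes. The Max-like gene mxl-3, a repressor of lysosomal lipase genes, had 9.81, 10.35 and 10.06 on the mutant arrays, against 10.34, 10.32 and 9.41 on the wild type arrays. Its TFEB-like counterpart hlh-30, an activator of lysosome and autophagy genes, had 9.87, 10.34 and 10.35 on the mutant arrays, against 10.38, 10.24 and 9.72 on the wild type arrays. In both, the lowest array was wild type replicate 3 and the next lowest mutant replicate 1. The differences were 0.05 (95% interval -0.60 to 0.70) and 0.08 (95% interval -0.42 to 0.57). As mutant over wild type, these intervals run from 0.66 to 1.62 for mxl-3 and from 0.747 to 1.49 for hlh-30, so they allow a rise or a fall. Without wild type replicate 3 the log2 differences were -0.26 and -0.12. The other probe sets of hlh-30 gave 0.05 and -0.04. Over the 8 zipper genes the median relative to the mean of the 6 arrays was -0.15, 0.19 and 0.19 on the mutant arrays, against 0.13, 0.04 and -0.41 on the wild type arrays. Of 14 lysosome and autophagy genes none passed in limma, 1 had an unadjusted p under 0.05 and the median was -0.03. The largest differences were 0.45 for epg-5 (SE 0.24) and -0.27 for bec-1, the worm's Beclin (SE 0.08). The probe set of bec-1 is of a shared kind.

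**Figure D5:**
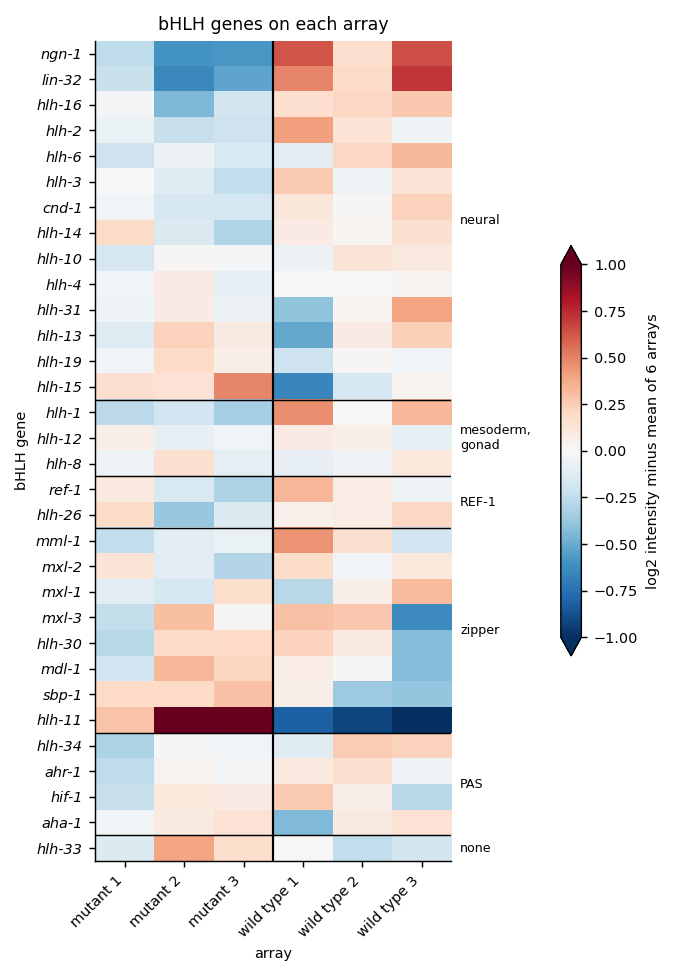
Log2 intensity minus the gene's mean over the 6 arrays (colour, blue below and red above 0, clipped at 1 in either direction) for the 32 bHLH genes (rows, by role) on the 3 mutant arrays (left of the vertical line) and 3 wild type arrays (right). The rows of ngn-1, lin-32 and hlh-11 split at the line, and among the zipper genes wild type replicate 3 is low for mxl-3, hlh-30 and mdl-1.

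In the PAS class no gene passed in limma and 0 of 4 had an unadjusted p under 0.05. The hypoxia-inducible factor gene hif-1 had 11.19, 11.52 and 11.50 on the mutant arrays, against 11.68, 11.48 and 11.14 on the wild type arrays. All mutant arrays lay inside the wild type range, with a difference of -0.03 (95% interval -0.42 to 0.35). Its ARNT-like partner aha-1 differed by 0.13 (SE 0.16), and its second probe set gave 0.11. The dioxin receptor homologue ahr-1, which in worms shapes neuronal fates, differed by -0.16 (95% interval -0.42 to 0.10). The dim hlh-34 had a mean of 5.29 in the mutant and 5.53 in wild type.

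HIF-1 is controlled through protein stability, which arrays do not measure. Of the 4 genes of its regulation none passed in limma, 1 had an unadjusted p under 0.05 and the median was -0.19. The largest differences were -0.47 for cysl-1 (SE 0.11) and 0.39 for rhy-1 (SE 0.34). Of 6 listed hypoxia response genes 1 rose (16.7%, against 3.03% of all genes). This was the carbonic anhydrase gene cah-4, at 2.22 (SE 0.23, limma adjusted p = 0.00747). The list median was 0.05, and of the other 5 the hydroxylase gene phy-2 had mutant arrays below all wild type arrays, at -0.45 (limma adjusted p = 0.214).

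The gene hlh-33, given no class here, had 6.90, 7.43 and 7.21 on the mutant arrays, against 7.03, 6.79 and 6.85 on the wild type arrays. Its groups overlapped through mutant replicate 1, and the difference was 0.29 (SE 0.15, limma adjusted p = 0.357).

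Outside the rule, 3 further bHLH genes with probe sets of their own were listed. Of these cky-1, a PAS gene related to NPAS4, fell by 0.70 (SE 0.12, limma adjusted p = 0.0343), with 7.39, 7.76 and 7.63 on the mutant arrays, against 8.43, 8.25 and 8.19 on the wild type arrays. The Hand homologue hnd-1 and the hairy homologue lin-22 did not pass, and the median of the 3 was -0.35. Of the germline list 1 of 10 genes fell, pgl-3, by 0.70 (10%, against 0.646% of all genes). In that list pgl-1 was higher by 0.70 without overlap of the groups, but did not pass (limma adjusted p = 0.112). Of the adult list 1 of 8 rose, vit-1, by 0.58 (12.5%, against 3.03% of all genes). Its wild type arrays, at 5.81, 5.64 and 5.59, lay just above the highest yeast control value of 5.55. The medians of the germline and adult lists were -0.24 and -0.02.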

How the data were processed

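The authors deposited 1 table of normalized linear intensity values and a series matrix of log2 values, made with Affymetrix Expression Console per the submitters' processing notes. Background correction and summarization were not given in the sources used here. Deposited log2 values equalled log2 of the linear table within 5.66e-06. Quartiles were close between arrays (29.64 to 30.55 and 520.2 to 548.8), so a change in total messenger RNA cannot be seen. With 3 arrays per group, their number limits the precision.

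Log2 of the linear values was analysed with no filter or pseudocount. Probe sets with 1 gene were kept (20732, against 756 with several, 1060 with none and 77 controls), with the brightest per gene. Names were updated through the WBcel235 gene table (16832 of 17337 genes, and all 32 bHLH genes). The difference, mutant minus wild type, was fitted in limma 3.58.1 (lmFit, eBayes; R version 4.3.3) with a two-sided test, no covariates and Benjamini-Hochberg adjustment over all genes, at 0.05. The steps were tested on simulated data.

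The members and lists were chosen with earlier results of these data known, so lists get counts and medians and no test. Every member may be named, and from each list up to 4 genes past the threshold or, with none, the 2 largest differences. The genes phy-2, hnd-1, lin-22, unc-55, pgl-1, sqt-1, pos-1 and mex-5 were named after their values were seen. Alternatives were the replicate block, each array left out, the series matrix, quantile normalization, median centring, 2 filters on dim genes, a pseudocount of 16, an intensity trend with robust fit, array weights, the mean of all probe sets, adjustment over probe sets and, added after seeing the data, leaving out both arrays numbered 1. Listed genes without a probe set of their own (acs-5, unc-54, med-2 and hlh-27) and probe sequences were not used here.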

Additional observations from a re-analysis of the deposited data

How the results depend on the processing

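Calls of the bHLH genes depended on single arrays more than on the scaling. The count of 3 stayed at 3 with median centring, quantile normalization, both filters on dim genes, the series matrix table, the intensity trend with robust fit, the mean of all probe sets and adjustment over all probe sets. It was 1 with a pseudocount of 16 (hlh-11, with limma adjusted p-values of 0.0563 for lin-32 and 0.0513 for ngn-1). It was 9 of 32 with array weights and 6 of 32 without both arrays numbered 1. All-gene calls in these 3 settings went to 449 (2.59%), 3531 (20.4%) and 2998 (17.3%). The larger counts thus came with many more calls over all genes, and 6 of 32 is near the share of all genes. Without 1 array it ranged from 0 to 4. The median of the 32 differences was -0.17 after median centring, against -0.13 over all genes, and ranged from -0.15 to -0.06 without 1 array. With the replicate block the count was 3 and the median -0.09. Same-numbered arrays had correlations of 0.21, 0.01 and 0.14 over genes in their deviations from the group means, so the numbers were not taken to pair the samples.

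Over all alternatives hlh-11 kept a difference of 1.76 to 2.39 with adjusted p-values from 2.37e-04 to 0.0921, ngn-1 -1.11 to -0.87 with 0.00396 to 0.149, and lin-32 -1.06 to -0.80 with 0.00421 to 0.160. Signs changed only for genes near 0. Array weights gave 0.05 for hif-1, 0.01 for mxl-1 and -0.02 for hlh-8. Median centring gave -0.07 for hlh-8, -0.03 for mxl-3 and 0.00 or just below for hlh-30, and quantile normalization -0.07 for hlh-8. Without both arrays numbered 1, aha-1 was -0.01 and hif-1 0.20. Ranges without 1 array were -0.05 to 0.24 for aha-1, -0.18 to 0.09 for hif-1, -0.08 to 0.00 for hlh-12, -0.09 to 0.28 for hlh-13, -0.12 to 0.24 for hlh-30, -0.22 to 0.18 for hlh-31, -0.06 to 0.02 for hlh-4, -0.06 to 0.07 for hlh-8, -0.22 to 0.07 for mxl-1 and -0.26 to 0.21 for mxl-3. The cause was not tested in any of these. Dim signal limits hlh-12, hlh-19, hlh-26 and hlh-34.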
